A study of Mus musculus with 10 samples.

Results

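Monoamines such as serotonin, noradrenaline and dopamine act on cells through membrane receptors and are removed by transporters, stored in vesicles or broken down by oxidases. Endothelial cells are known to carry monoamine oxidase A, and platelets, mast cells and nerve fibres, which can all lie against vessels of the dura mater, are known to hold the serotonin transporter or the vesicular monoamine transporter. The 10 genes described here cover these steps: the transporters Slc6a4, Slc18a2, Slc29a4 and Slc22a3, the oxidases Maoa and Maob, the serotonin receptors Htr2a and Htr2b, and Nos1 and Gpm6b, whose products are known to interact with the serotonin transporter. They are the 10 entries with these symbols among the 55401 genes of the deposited count table. They were chosen with the counts of these same replicates known, and serotonin uptake was one of the gene sets the study itself named from them, so the SCVS and naive values are given as a description and not as a test.

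The study compared meningeal lymphatic endothelial cells (LECs) of non-stressed (naive) female mice with those of female mice given sub-chronic variable stress (SCVS), in which foot shock, tail suspension and restraint alternate over 6 days. All mice were 3 months old, of strain C57BL/6 in the labels and C57BL/6J in the study's methods. Each group had 5 replicates, and each replicate was a pool of cells from the meninges of 3 to 4 mice, sorted as CD45-, CD31+ and podoplanin+. RNA was amplified with a whole-transcriptome kit for very small inputs before sequencing. Same-numbered replicates of the groups were pools of different mice.

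Reads counted on genes numbered between 9984743 and 14094155 per replicate, so that 3 counts, taken as the floor of detection, were worth 0.213 to 0.3005 CPM (the count divided by the library total and multiplied by 1000000). This floor covers counting error only. The label of the cells held unevenly. A list of 7 pan-endothelial genes (Pecam1, Cdh5, Tek, Tie1, Kdr, Emcn and Erg) summed to 3712 to 6694 CPM in 9 replicates and to 434 CPM in naive replicate 5. A list of 7 lymphatic genes (Prox1, Lyve1, Flt4, Pdpn, Mmrn1, Ccl21a and Reln) summed to 60.8 CPM in naive replicate 1, where Prox1 and Pdpn had 0 counts and Lyve1 had 2, and to between 185 and 3074 CPM in the other replicates. A list of 7 blood endothelial genes, of cells that the gate should leave out, summed to 312.8 to 10258 CPM. This sum was above the lymphatic sum in every replicate, although sums of different genes do not give shares of cells. Lists of 7 fibroblast and 7 mural cell genes summed to 108.4 to 1845 CPM and 426.05 to 7476 CPM. Of the fibroblast genes, 2 to 5 were over 3 counts in naive and 3 to 6 in SCVS replicates, and of the mural genes 2 to 7 and 5 to 6. Rgs5 had the most counts of the mural list in every replicate but naive replicate 2. In naive replicate 5 it had 67407 counts, while Pdgfrb, Myh11, Abcc9 and Cspg4 had 0. Fitted values that move with naive replicates 1 and 5 are therefore given with and without them. SCVS replicate 5 was also low in lymphatic genes, at 439 CPM with 2 counts of Prox1, and it stayed in those fits. Leaving out naive pools alone does not even out the cell makeup of the groups. In bulk samples, fewer cells of a type and less RNA per cell cannot be told apart.

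The 10 genes fell into 2 sorts. Maoa and Gpm6b had more than 3 counts in all 10 replicates and Maob in 8, whereas the other 7 genes were found in 5 replicates at most. Among the 14815 genes put to test, which had over 5 counts in 3 or more replicates, 38.06% had more than 3 counts in every replicate and the median gene had them in 9. Of the 10 genes, 6 passed this filter on low counts. Slc29a4 and Nos1 lay just inside it with 3 replicates over 5 counts, Slc6a4 and Htr2b lay just outside it with 2, and Slc22a3 and Htr2a had 1. Slc29a4 passed only through SCVS replicates.

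**Figure D1:**
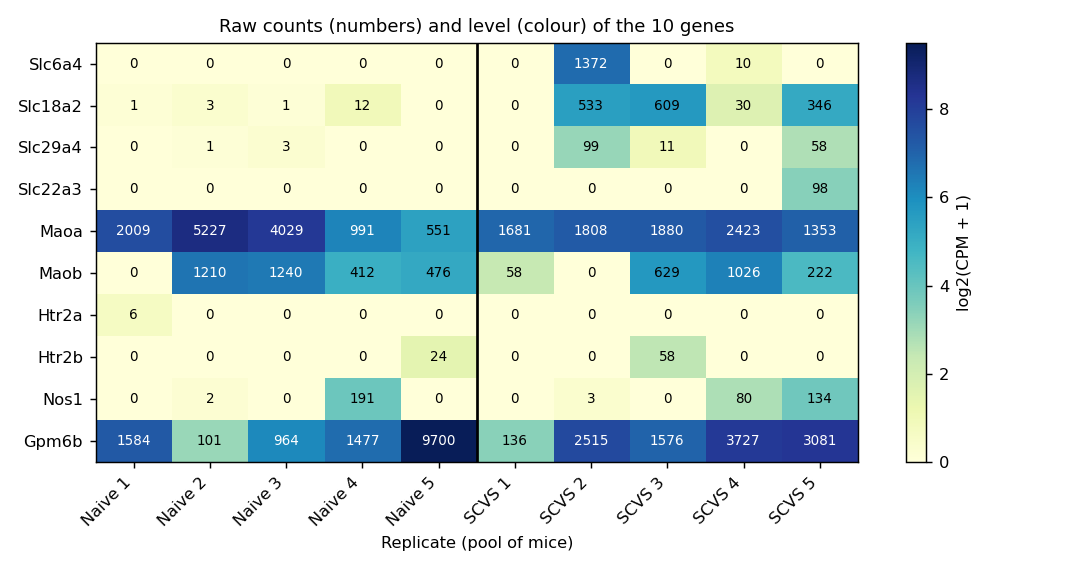
Raw counts (numbers) and log2(CPM + 1) (colour) of the 10 genes in the 5 naive and the 5 SCVS replicates, which the black line separates. Maoa and Gpm6b are found in every replicate, Slc18a2 is at 30 to 609 counts in 4 SCVS replicates and at 0 in the fifth, and Slc22a3 and Htr2a are each found in a single replicate.

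Per length of exon, the order of the mean levels over all replicates was Maoa, Gpm6b, Maob, Slc18a2, Slc6a4, Slc29a4, Nos1, Htr2b, Slc22a3 and Htr2a. The means were 41.8, 35.7 and 14.5 CPM per kb for Maoa, Gpm6b and Maob. The median of tested genes with an exon length was 6.43 CPM per kb, and Maoa lay at the 87.9th percentile of them, Gpm6b at the 85.5th and Maob at the 70.2nd. Slc18a2 and Slc6a4 followed at 3.46 and 2.51 CPM per kb, and the other 5 genes lay between 0.0194 and 0.542 CPM per kb. Neighbours in this order did not differ beyond the spread of their replicates: Maoa ranged from 9.92 to 98.2 CPM per kb and Gpm6b from 1.41 to 129.95 CPM per kb.

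The sequences upstream of 3 of the genes are shown because Slc18a2 and Slc29a4 were over the floor together in SCVS replicates 2, 3 and 5, while Maoa was over it in every replicate. Each run holds the 250 bases before the start site that RefSeq gives on build GRCm38.p6, on the plus strand, 5′ to 3′, with matches to the GC box GGGCGG or its reverse complement CCGCCC in capitals, overlapping matches merged.
Slc18a2: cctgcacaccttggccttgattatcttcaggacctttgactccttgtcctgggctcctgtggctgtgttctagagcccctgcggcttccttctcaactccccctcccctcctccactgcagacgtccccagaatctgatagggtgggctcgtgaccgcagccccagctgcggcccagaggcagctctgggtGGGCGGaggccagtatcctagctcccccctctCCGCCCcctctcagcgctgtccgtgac
Slc29a4: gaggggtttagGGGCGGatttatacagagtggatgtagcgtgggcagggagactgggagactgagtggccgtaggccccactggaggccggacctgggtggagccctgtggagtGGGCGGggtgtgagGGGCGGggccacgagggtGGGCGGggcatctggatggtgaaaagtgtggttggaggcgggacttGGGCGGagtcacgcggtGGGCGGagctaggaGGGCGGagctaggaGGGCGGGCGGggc
Maoa: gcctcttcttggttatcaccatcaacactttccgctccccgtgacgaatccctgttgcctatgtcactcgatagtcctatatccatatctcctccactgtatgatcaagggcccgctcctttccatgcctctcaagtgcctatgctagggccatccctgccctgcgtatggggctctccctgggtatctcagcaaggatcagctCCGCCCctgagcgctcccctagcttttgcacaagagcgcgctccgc
They lie at chr19:59260628-59260877, chr5:142701851-142702100 and chrX:16619448-16619697. The start site used for Slc29a4 lies inside the span of the gene. The GC box occurred 2 times for Slc18a2, 9 times for Slc29a4 and 1 time for Maoa, and 32.7% of the 32851 RefSeq windows of the same length hold at least 1. The GC content was 64%, 68.8% and 56.8%, against a median of 52.4% over all windows. TATAAA, on either strand, occurred 1 time for Slc29a4 and not in the other 2 windows, and 12.4% of all windows hold it. AGAACA, a short site bound by steroid receptors of the glucocorticoid type, occurred 1 time for Slc18a2 on either strand and not in the other 2, against 16.1% of all windows. Of the windows not shown, those of Htr2a and Htr2b held it 1 time each, and those of Slc6a4, Slc22a3, Nos1 and Gpm6b did not. Such matches describe the letters only.

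Slc18a2 (chromosome 19, 59260878 to 59296012, GRCm38.p6) encodes the vesicular monoamine transporter that loads serotonin and other amines into storage vesicles. Naive replicates 1 to 5 gave 1, 3, 1, 12 and 0 counts of it, and SCVS replicates 1 to 5 gave 0, 533, 609, 30 and 346 counts. SCVS replicates 2, 3 and 5 were high, replicate 4 was low but above every naive replicate, and SCVS replicate 1, at 0, lay within the naive range, so the groups overlapped. The mean was 0.257 ± 0.361 CPM in naive and 26.02 ± 23.3 CPM in SCVS replicates (SD, n = 5 each), and the fitted log2 fold change was 6.58 with a standard error of 2.14. It was 6.01 without naive replicates 1 and 5 and 6.45 without SCVS replicate 5. A count over the floor in at most 1 naive and at least 4 SCVS replicates was found for 1.48% of tested genes.

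Slc29a4 (chromosome 5, 142692478 to 142722490) encodes the plasma membrane monoamine transporter, a low-affinity carrier of serotonin and dopamine. Its counts were 0, 1, 3, 0 and 0 in naive replicates and 0, 99, 11, 0 and 58 in SCVS replicates. All 3 replicates over the floor, SCVS replicates 2, 3 and 5, were also those with the most Slc18a2. Against a naive floor of 3 counts per replicate, its SCVS mean of 2.97 ± 3.76 CPM (SD, n = 5) was at least 12.5-fold higher, and at least 7.08-fold higher without SCVS replicate 2, the highest. The fitted log2 fold change, 5.32 with a standard error of 2.21 and 4.69 without naive replicates 1 and 5, depends on the prior count of the fit, since no naive replicate was over 3 counts, which held for 1.24% of tested genes.

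Slc6a4 (chromosome 11, 76998597 to 77032343), the high-affinity serotonin transporter of the plasma membrane, was read 1372 times in the second SCVS pool and 10 times in the fourth, and had no read in the 8 remaining pools. Thus 99.3% of its reads came from a single pool. Its SCVS mean of 22.7 ± 50.3 CPM (SD, n = 5) was at least 95.9-fold above the naive floor, but without SCVS replicate 2 the remaining mean lay under the floor of 3 counts and no fold could be given. Slc22a3 (chromosome 17, 12419972 to 12507704), an organic cation transporter that takes up monoamines with low affinity, was read 98 times in SCVS replicate 5 and in none of the 9 remaining pools. All of its signal was therefore from 1 pool, and its mean was 1.96 ± 4.39 CPM in SCVS replicates (SD, n = 5), at least 8.29-fold above the naive floor with that pool and at 0 without it. Such patterns were common: 35.8% of genes with 6 or more counts were over the floor in 1 or 2 replicates only.

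Reads on genes of platelets, mast cells and the pineal gland, in which amine carriers or serotonin synthesis are known, were present in the same libraries, although the sort should leave out mast cells, which are CD45+, and pinealocytes, which lack CD31. A list of 10 platelet genes summed to 0.0750 to 363 CPM in naive and 104.8 to 702 CPM in SCVS replicates, with 0 to 7 and 6 to 9 of the 10 genes over 3 counts. In SCVS replicate 2, which held nearly all Slc6a4, 9 of the 10 were over 3 counts, with Gp1ba at 749 counts there and at most 6 elsewhere. Itga2b, Itgb3, Treml1 and Gp1bb were also highest there (858, 307, 421 and 29 counts). Ppbp, Pf4, Gp9, Gp6 and Clec1b were lower there (2009, 547, 2, 121 and 1071 counts) than in SCVS replicate 1 (4854, 1523, 566, 460 and 1727 counts). SCVS replicate 1 had the highest platelet sum, 702 CPM, and 0 counts of both Slc6a4 and Slc18a2. A list of 10 mast cell genes summed to 0 to 55.9 CPM in naive and 0.325 to 291 CPM in SCVS replicates, with 0 to 3 and 0 to 6 genes over 3 counts. Mcpt4 and Mrgprb2, which mark mast cells of connective tissue, had 0 counts in every replicate, whereas other genes of the list were read in pools of both groups. Kit and Cma1 had 469 and 262 counts in naive replicate 3. Tpsb2 and Tpsab1 had 167 and 158 in naive replicate 4, and Cpa3 had 192 in naive replicate 5. Fcer1a, Cpa3 and Ms4a2, of the mast cell's IgE receptor and granules, had 979, 973 and 286 counts in SCVS replicate 5. Tpsb2 had 160 counts there, Tpsab1 had 148 in SCVS replicate 4, and Fcer1a had 171 in SCVS replicate 2. SCVS replicate 3 had the most Slc18a2 and no mast cell gene over 3 counts, whereas SCVS replicate 5, the only pool with Slc22a3, had the highest mast cell sum. A list of 11 pinealocyte genes, Tph1 among them, written after the counts were seen, summed to 1.002 to 3220 CPM in naive and 4.68 to 4109 CPM in SCVS replicates, with 1 to 11 and 3 to 10 genes over 3 counts. Naive replicate 5, at 3220 CPM, had 0 counts of Slc18a2, Slc29a4, Slc6a4 and Slc22a3. SCVS replicate 5, at 4109 CPM, had 346 counts of Slc18a2, 58 of Slc29a4 and 98 of Slc22a3, and SCVS replicate 2, which held Slc6a4, Slc18a2 and Slc29a4, had 346 CPM and 7 of the 11 genes over 3 counts.

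A list of 7 myeloid genes, of cells that the CD45- gate should also leave out, summed to 3.07 to 549 CPM in naive replicates (median 49.2) and 133.2 to 3890 CPM in SCVS replicates (median 218), with 1 to 5 and 2 to 6 genes over 3 counts. In naive replicate 2, Mrc1 had 1328 counts and Lyz2 had 489, while Ptprc, Cd68 and Adgre1 had 0. That pool had the highest lymphatic sum of the naive group, 2747 CPM, and which cells held Mrc1 was not tested. Ptprc, which encodes CD45, was read at most 1 time in any naive pool and 27, 0, 0, 113 and 404 times in SCVS replicates 1 to 5. Ptprc passed the filter on low counts only through SCVS replicates. DESeq2 called it (adjusted p = 0.0801) and edgeR did not (adjusted p = 0.971), and nothing is read from this. Acta2 of the mural cell list, over 3 counts in all 10 replicates, was also called by DESeq2 (adjusted p = 0.06), lower in SCVS, and not by edgeR (adjusted p = 0.964). The myeloid sum was highest in SCVS replicate 4, where Slc18a2 had 30 counts and Slc29a4 had 0. Ptprc had 0 counts in SCVS replicates 2 and 3, where both transporters were read, but other myeloid genes were read there. SCVS replicate 3 had the second highest myeloid sum, 764.6 CPM, with 6457 counts of Lyz2, 2103 of Mrc1, 559 of Adgre1 and 305 of Csf1r. SCVS replicate 2 had the lowest sum of its group, with 1542 counts of Lyz2. Apart from these direct values, the part of such cells in the transporter counts was not tested.

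**Figure D2:**
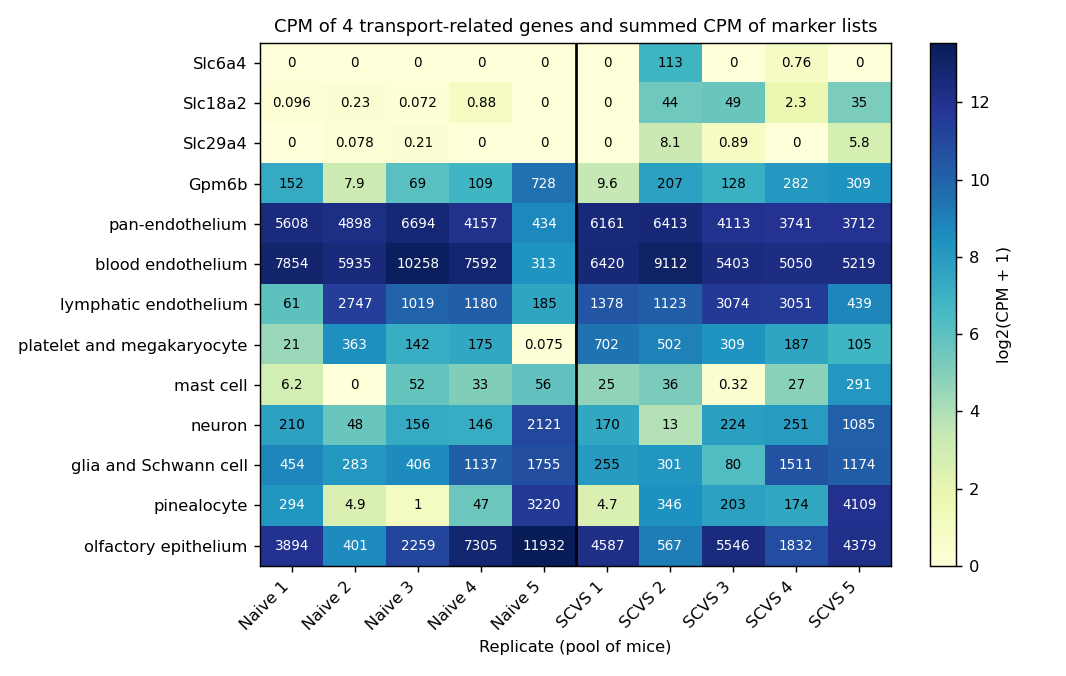
CPM of Slc6a4, Slc18a2, Slc29a4 and Gpm6b and the summed CPM of 9 lists of marker genes in each replicate, with colour on a log2(CPM + 1) scale and the black line between naive and SCVS. Naive replicate 5 has 434 CPM of pan-endothelial genes, and SCVS replicate 1 has the highest platelet sum, 702 CPM, with no Slc6a4 or Slc18a2.

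Maoa, whose product oxidizes serotonin and noradrenaline in mitochondria, was the most abundant of the 10 genes per length. It lies on chromosome X from 16619698 to 16687812, and Maob, the related oxidase with a preference for phenylethylamine, lies 21.5 kb away at 16709281 to 16817366. Maoa had 192.8, 409.3, 288.3, 73.01 and 41.3 CPM in naive replicates 1 to 5 and 119.3, 148.5, 152.5, 183.1 and 135.5 CPM in SCVS replicates 1 to 5. The SCVS values all lay inside the naive range. The naive replicates spread over 9.9-fold and the SCVS replicates over 1.54-fold, a difference in spread that was seen in these data and not tested. The lowest naive value was that of replicate 5, the pool with few endothelial reads. The next lowest was that of naive replicate 4, a pool with 4157 CPM of pan-endothelial genes, and any link to cell makeup was not tested. The means were 200.9 ± 152 and 147.8 ± 23.6 CPM (SD, n = 5 each), and the fitted log2 fold change was −0.48 with a standard error of 0.54, or −0.82 without naive replicates 1 and 5. The coefficient of variation of Maoa over the 10 replicates, 0.611, was lower than that of the median tested gene, 0.928, but among the 1992 tested genes within 2-fold of its level it lay at the 79.2nd percentile.

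Maob had 0, 94.7, 88.7, 30.4 and 35.7 CPM in naive replicates and 4.12, 0, 51.0, 77.5 and 22.2 CPM in SCVS replicates. Naive replicate 1 and SCVS replicate 2 had no Maob read while they had 2009 and 1808 reads of Maoa, and the groups overlapped over nearly their whole range. The means were 49.9 ± 40.6 and 30.98 ± 32.9 CPM (SD, n = 5 each), with a fitted log2 fold change of −0.66 and a standard error of 1.58, or −1.18 without naive replicates 1 and 5. Per length of exon, Maoa exceeded Maob by 1.58- to 19.4-fold in 7 of the 8 replicates with both, and naive replicate 5, at 0.775, was the exception.

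**Figure D3:**
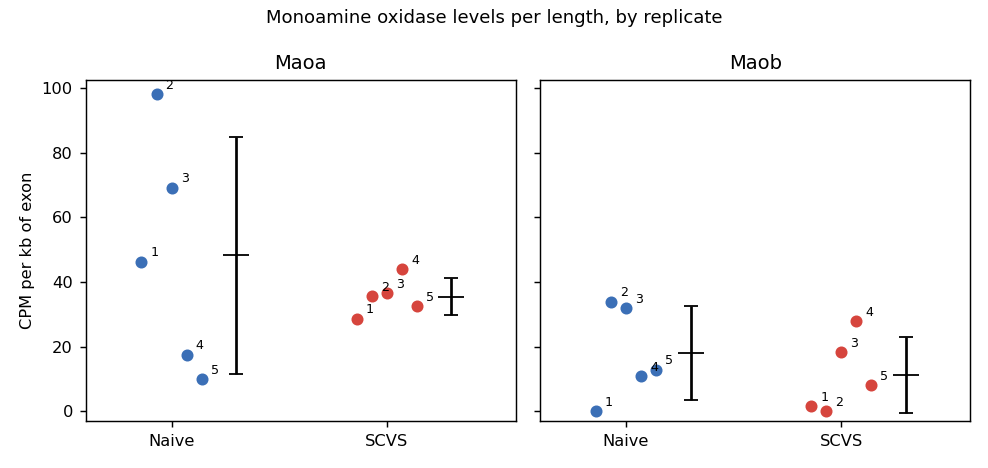
CPM per kb of exon of Maoa and Maob in each replicate (numbered points), with the mean and SD of each group as bars (n = 5 each). Maoa spans 9.92 to 98.2 in naive and 28.6 to 43.9 in SCVS replicates, and Maob is at 0 in naive replicate 1 and SCVS replicate 2.

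Htr2a (chromosome 14, 74640874 to 74706859) and Htr2b (chromosome 1, 86097546 to 86116231) encode serotonin receptors that signal through Gq and phospholipase C, Htr2b being the form known from heart valves and vessels. Htr2a was read 6 times in naive replicate 1 and in no other pool, so it was not detectable at this depth beyond that pool. Htr2b had 24 counts in naive replicate 5, 58 counts in SCVS replicate 3 and 0 elsewhere, or 0.360 ± 0.805 CPM in naive and 0.941 ± 2.10 CPM in SCVS replicates (SD, n = 5 each). An exon of Psmd1 on the opposite strand overlaps Htr2b in the mm9 annotation, and the use of strand in counting is not given, so its few reads cannot be assigned with certainty. No fold is given for Htr2a, for which both groups were under the floor on average.

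Nos1 (chromosome 5, 117866839 to 117958840), the neuronal nitric oxide synthase, which binds the serotonin transporter, had 191 counts in naive replicate 4, 80 and 134 in SCVS replicates 4 and 5 and at most 3 in the other 7 replicates. The means were 2.85 ± 6.28 and 3.94 ± 5.89 CPM (SD, n = 5 each), with a fitted log2 fold change of 0.52 and a standard error of 2.50. It was −0.20 without naive replicates 1 and 5. A list of 7 glial genes summed to 1137, 1511 and 1174 CPM in these 3 pools and to 79.8 to 454 CPM in 6 of the others, while naive replicate 5, with the highest sum at 1755 CPM, had 0 counts of Nos1.

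Gpm6b (chromosome X, 166238943 to 166389033), a membrane glycoprotein of neurons and glia that also interacts with the serotonin transporter, had 152.0, 7.91, 68.98, 108.8 and 727.7 CPM in naive replicates and 9.65, 206.6, 127.9, 281.6 and 308.6 CPM in SCVS replicates. Naive replicate 5 was far above the rest, and naive replicate 2 and SCVS replicate 1 were low. The means were 213.1 ± 293 and 186.9 ± 122 CPM (SD, n = 5 each) with a log2 fold change of −0.24 and a standard error of 1.005, which turned to 1.59 without naive replicates 1 and 5 and to 1.10 without naive replicate 5 alone. Naive replicate 5 also had the highest sum of 7 neuronal genes, 2121 CPM against 13.1 to 1085 CPM in the other replicates, and of the glial genes. Over all replicates, 2 to 6 of the 7 neuronal genes were over 3 counts in naive and 1 to 6 in SCVS pools, and 4 to 6 of the 7 glial genes in both groups. Their part in the Gpm6b level was not tested.

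Across the whole table, the quasi-likelihood test of edgeR (Benjamini-Hochberg adjustment) called 0 of the 6 tested genes of this set at an adjusted p under 0.1, and 0 of 14815 genes in all (0%). At an unadjusted p under 0.05, it gave 2 of the 6, Slc18a2 and Slc29a4, both higher in SCVS, and 3.1% of all genes (1.93% higher, 1.17% lower). DESeq2 called 1 of the 6, Slc18a2, and 0.769% of all genes (0.499% higher, 0.27% lower), and limma with voom called 0 of the 6 and 0.0135% of all (0.00675% in each direction). The DESeq2 shares are of all 14815 genes, although it gave no p-value for 817 of them. As the set was chosen from this same contrast, nothing is read from these counts. No gene of the set had groups that did not overlap in CPM, which 0.628% of tested genes had (0.445% higher, 0.182% lower in SCVS).

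The other genes of the pathway, in 8 lists with 82 genes, gave the setting of these values. Of the 82 genes, 41 were tested and 11 had no read in any replicate. None of the 41 was called higher or lower by edgeR's quasi-likelihood test, by DESeq2 or by limma with voom, and 0 had an unadjusted p under 0.05 in edgeR. For Tph1 and Tdo2, DESeq2 with its default settings gave no p-value, so they could not be called there. Their median log2 fold change was −0.10, beside −0.03 over all tested genes, with 17 above and 24 below 0.

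Of the 7 genes of serotonin synthesis, 6 were tested. Tph1, the tryptophan hydroxylase of the gut and the pineal gland, was read 585, 3, 1, 1 and 13107 times in naive and 10, 1924, 502, 820 and 15459 times in SCVS replicates. Naive replicate 5 and SCVS replicate 5 held most of it, at 983 and 1548 CPM, and these were also the pools with the highest sums of the pinealocyte list, 3220 and 4109 CPM. The fitted log2 fold change was 0.77 with a standard error of 2.13, −1.80 with SCVS replicate 5 left out, 4.62 with naive replicate 5 left out and 11.41 without naive replicates 1 and 5, where no naive replicate was over 3 counts and the value depends on the prior count. Tph2, the neuronal form, had no replicate over 3 counts. Qdpr, which regenerates the cofactor of these enzymes, was found in every replicate at 142.4 ± 59.6 and 123.7 ± 63.7 CPM (SD, n = 5 each).

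Among genes of catecholamine and histamine synthesis, Th, the tyrosine hydroxylase, was over 3 counts in 2 replicates of each group and had a log2 fold change of −0.99 (standard error 2.69) or −1.74 without naive replicates 1 and 5, and Hdc, which makes histamine, was over 3 counts in 2 naive and 4 SCVS replicates, with 0.78 (standard error 2.02), or 2.51 without those 2. Dbh and Pnmt, which make noradrenaline and adrenaline, had no reads at all. Of 7 other transporters only Slc47a1, a proton-coupled organic cation extruder, was tested. It had 11.1 ± 18.9 CPM in naive and 49.5 ± 58.99 CPM in SCVS replicates (SD, n = 5 each), with 2 and 5 replicates over 3 counts. The log2 fold change was 2.21 (standard error 1.74), or 1.48 without naive replicates 1 and 5. Slc6a2, the noradrenaline transporter, had 116 counts in naive replicate 5 and 21 in SCVS replicate 2 only.

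Of 14 other enzymes of breakdown and conversion, 9 were tested, with a median log2 fold change of −0.10. Akr1a1, an aldehyde reductase, was the most abundant at 937 ± 148 and 805 ± 171 CPM (SD, n = 5 each), and Sult1a1, a sulfotransferase acting on phenols and amines, had 229 ± 139 and 150.8 ± 49.9 CPM. The log2 fold change of Sult1a1 was −0.64 (standard error 0.53), or −1.09 without naive replicates 1 and 5. Of 12 other serotonin receptors, only Htr5b was tested and 3 (Htr1a, Htr3b and Htr4) had no read. Htr7, a Gs-coupled receptor known from smooth muscle, had 206 and 370 counts in SCVS replicates 1 and 4 and 0 elsewhere, and Htr1f had 228 counts in naive replicate 5 and at most 1 in the other replicates. Htr5b had 129 counts in naive replicate 5, 48 in SCVS replicate 1 and 31 in SCVS replicate 5, with 0 elsewhere. As with Htr2a and Htr2b, these receptors were thus held by few pools.

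By contrast, all 9 genes of the signalling chain below Htr2 receptors were tested, with a median log2 fold change of −0.39. Gna11, a G protein subunit, had 97.3 ± 61.9 and 124.8 ± 34.9 CPM and Plcb1, a phospholipase C, had 148.6 ± 81.02 and 171.8 ± 109 CPM (SD, n = 5 each). All 11 partners and regulators of the serotonin transporter were also tested, with a median of −0.06. Maged1 had 157.7 ± 105 and 143.4 ± 92.9 CPM and Ppp2ca, the catalytic subunit of a phosphatase, had 134.98 ± 35.6 and 174.99 ± 70.98 CPM (SD, n = 5 each). Of 18 receptors for other monoamines, 2 were tested. Adra2b, an alpha-2 adrenergic receptor, had 891 counts in naive replicate 1, 4 in SCVS replicate 1 and 0 elsewhere.

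**Figure D4:**
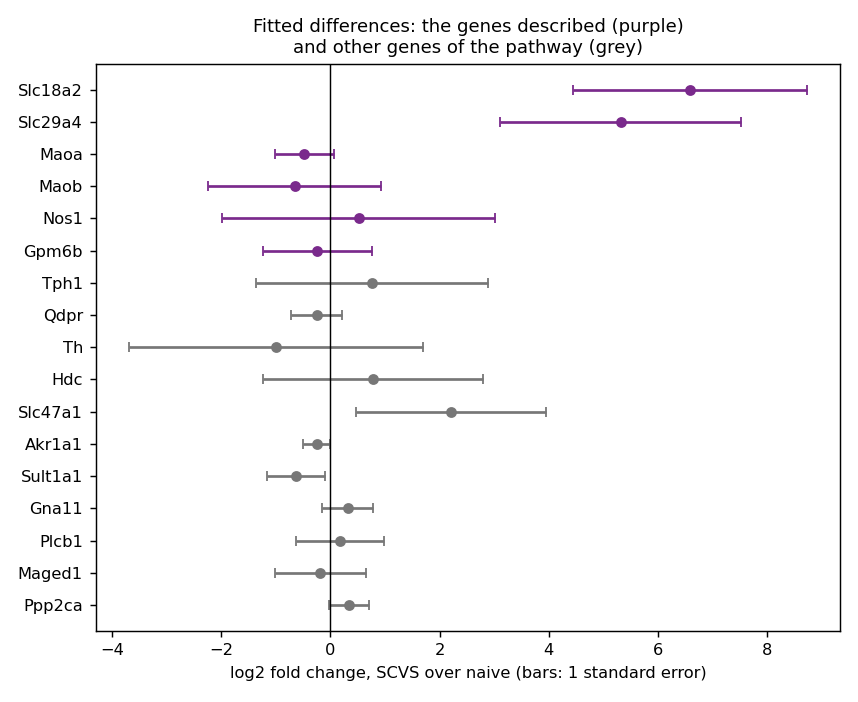
Fitted log2 fold change of SCVS over naive with 1 standard error on each side (edgeR, 5 replicates against 5) for the 6 tested genes of the set (purple) and 11 tested genes named from the pathway lists (grey). Slc18a2 at 6.58 and Slc29a4 at 5.32 lie farthest from 0 and Maoa, at −0.48, lies within 1 standard error of it.

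For the genes found in at least 6 replicates, the tested genes whose pattern over the 10 replicates was most alike were sought by Pearson's r of log2(CPM + 1). For Maoa these were Slc52a3 (r = 0.914) and Lypla1 (r = 0.908), for Maob Tiparp (r = 0.933) and Snx6 (r = 0.929), and for Gpm6b Tk2 (r = 0.938) and Gpsm1 (r = 0.916). Each was the best of 14815 genes over 10 points that share library, depth and cell makeup, and the values are descriptive. The gene next after the 100 most alike still had an r of 0.778 for Maoa, 0.727 for Maob and 0.774 for Gpm6b.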

How the data were processed

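Per the labels and the study's methods, amplified RNA was sequenced in read pairs, trimmed (cutadapt 1.9.1), aligned with HISAT2 2.0.1 and counted per gene (HTSeq 0.6.1 is listed), and the authors deposited raw counts with no filter. The methods name mm9, whereas the submitters' processing notes list GRCm38. Of the 55401 identifiers, 22790 are numbered above the highest in the mm9 annotation (GENCODE M1), so coordinates are given on GRCm38.p6 (RefSeq, matched by symbol), while exon lengths and overlaps are those of GENCODE M1. The annotation and the use of strand are not given in the sources used here.

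The 10 genes and all lists were chosen with earlier results of these data known. CPM were computed from column totals. Genes over 5 counts in 3 or more replicates were fitted with edgeR 4.0.16 (R 4.3.3, TMM, quasi-likelihood), and those with an adjusted p under 0.1, the study's threshold, were called. The standard error is the absolute log2 fold change over the square root of F. Where a group had at most 3 counts in each replicate, the other mean was divided by the mean CPM of 3 counts. Alternatives were DESeq2 1.42.0, limma 3.58.1, other scalings and filters, a replicate block and leaving out replicates. In a simulation, every gene was given the same coefficient of variation beyond counting error, 1.59, unlike the data, where it differed by gene. The genes made to differ were taken from the better expressed ones. There edgeR called none of them, and DESeq2 called some of them along with a larger number left unchanged. Calls at the spread of each gene were not tested, and 0 calls in edgeR do not show equal levels. Named from each pathway list were the 2 genes with the highest mean CPM, of which 1 is not reported here, and others were named after their values were seen. Python 3.11.15 was used for the descriptions.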

Additional observations from a re-analysis of the deposited data

Results flagged for a closer look

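In 20 of 46 groups of 5 replicates with any count (the 10 genes and 15 genes named from the pathway lists), 1 replicate stood so far from the other 4 that its gap exceeded Dixon's critical value of 0.71 of the range, where chance flags about 1 in 20 groups of normally spread values. That rate does not hold here, because a gene read in a single pool fills the range by itself and the pathway genes were named for their high means. Of these, 8 belonged to the 10 genes. Slc6a4 in SCVS replicate 2 had 112.7 CPM against at most 0.756 in the others. Slc22a3 in SCVS replicate 5 (9.81 CPM), Htr2a in naive replicate 1 (0.576 CPM), Htr2b in naive replicate 5 (1.80 CPM) and Htr2b in SCVS replicate 3 (4.71 CPM) stood against 0 in the others. Slc18a2 in naive replicate 4 had 0.884 CPM against at most 0.235, and Nos1 in the same replicate had 14.1 CPM against at most 0.157. Gpm6b in naive replicate 5 had 727.7 CPM against 7.91 to 152.0.

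Naive replicate 5 also stood apart for Tph1 (983 CPM), Hdc (37.9 CPM), Slc6a2 (8.70 CPM) and Htr1f (17.1 CPM), and was low for Plcb1 (8.10 CPM against 153.1 to 208.2). The remaining values were Tph1 in SCVS replicate 5 (1548 CPM), Th in naive replicate 3 (63.4 CPM) and SCVS replicate 4 (37.5 CPM), Slc6a2 in SCVS replicate 2 (1.73 CPM), Slc47a1 in naive replicate 2 (43.7 CPM), and Adra2b in naive replicate 1 (85.5 CPM) and SCVS replicate 1 (0.284 CPM).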

How the results depend on the processing

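The fitted log2 fold changes of Slc18a2, Slc29a4, Maoa, Maob, Hdc, Slc47a1, Akr1a1, Sult1a1, Gna11 and Ppp2ca kept their direction in every alternative run that fitted them. Slc29a4 was fitted in 16 of 22 such runs. None of the runs without SCVS replicate 2, 3 or 5, the pools that held it, could fit it, so its direction was not tested there. Over the alternatives that fitted them Slc18a2 ranged from 4.89 to 7.84, Slc29a4 from 2.98 to 6.56, Maoa from −0.82 to −0.03 and Maob from −1.53 to −0.09. Of the 10 genes, edgeR called 0 in every setting, and DESeq2 called 1 (Slc18a2) with its default settings, without its Cook's filter and in both runs with replicates left out that were added after seeing the data. Over all genes the calls were 114 in DESeq2, 123 without its Cook's filter and 2 in limma with voom, and DESeq2 gave 235 without naive replicates 1 and 5 and 163 without naive replicate 5 and SCVS replicate 5. The pathway lists gave 2 calls, Hnmt and Itgb3, in DESeq2 without naive replicates 1 and 5, and 0 otherwise. With single replicates left out, edgeR's count of calls was 0 each time for the 10 genes, the pathway lists and all genes.

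The direction turned for Gpm6b in limma with voom (0.19), with the replicate block (0.38), without naive replicates 1 and 5 (1.59; 1.62 in DESeq2) and without naive replicate 5 and SCVS replicate 5 (0.83; 0.82 in DESeq2). Without naive replicates 1 and 5 it also turned for Nos1 (−0.20; −0.17 in DESeq2), Qdpr (0.12; 0.17) and Plcb1 (−0.12; −0.089), and without naive replicate 5 and SCVS replicate 5 for Plcb1 (−0.094; −0.093). Th turned with the replicate block (0.78). The value for Tph1 was 11.41 (11.59 in DESeq2) without naive replicates 1 and 5. With single replicates left out the ranges were −0.55 to 1.10 for Gpm6b, −1.80 to 4.62 for Tph1, −0.54 to 0.011 for Qdpr, −5.35 to 1.17 for Th, −0.21 to 0.47 for Plcb1 and −0.39 to 0.18 for Maged1. The causes were not tested. Among the runs with a single replicate left out, Slc29a4 and Nos1 could not be fitted in 3 each, where they fell under the filter. Between same-numbered replicates, the correlation of deviations from the group means was −0.01 to 0.13. The highest correlation of each naive replicate with an SCVS replicate of another number was 0.001 to 0.067. The same-numbered value was the higher one for replicates 1, 2, 4 and 5 and the lower one for replicate 3. The labels name no batch, and whether same-numbered pools were handled together was not tested. The block gave 0 calls. Levels under 0.213 to 0.3005 CPM, the floor of 3 counts, were not detectable, which limits Slc6a4, Slc22a3, Htr2a and Htr2b most.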

Other observations

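Several genes of melatonin and photoreceptor biology were read in these sorted cells. Of 11 genes known from pinealocytes, listed after the counts had been seen, all 11 had more than 3 counts in naive replicate 5 and 10 in SCVS replicate 5. Crx, a transcription factor of photoreceptors and pinealocytes, had 632, 1233 and 1469 counts in naive replicates 1 and 5 and SCVS replicate 5 and at most 1 elsewhere. Sag, the arrestin of the same cells, had 1631 and 5972 counts in naive replicate 5 and SCVS replicate 5. Aanat, which acetylates serotonin on the way to melatonin, had 593 counts in naive replicate 5, 209 in SCVS replicate 3 and 0 elsewhere, while Asmt, the last enzyme of that route, had 0 counts in every replicate. Gpm6b was highest in naive replicate 5 and second highest in SCVS replicate 5.

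Of 8 genes known from the olfactory epithelium, also listed after the counts had been seen, 6 to 8 had more than 3 counts in each naive and 5 to 8 in each SCVS replicate, with sums of 401 to 11932 CPM and 567 to 5546 CPM. Omp, the olfactory marker protein, had 40110 counts in naive replicate 5 and 4 in SCVS replicate 2, where Cyp2g1, a cytochrome of the same tissue, had 6848.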
